A study of Mus musculus with 12 samples.

Results

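Among the mitochondrial piRNAs (mito-piRNAs) of the embryonic mouse gonad, 15 unique sequences were sense fragments of mitochondrial tRNAs other than the 2 serine tRNAs. They were chosen by position only: each matched the mouse mtDNA (GRCm39, 16299 bp) with up to 1 mismatch, on the strand of the gene, with most of the match inside a tRNA gene other than mt-Ts1 and mt-Ts2. They made up 15 of the 204 unique sequences deposited for the series (7.35%) and 4806 of its 403352 reads (1.19%). The 2 serine tRNAs held 45 sequences and 185933 reads on the same rule. Of the 20 other tRNA genes of the mtDNA, 8 had a sense fragment, and mt-Ti, mt-Tm, mt-Tw, mt-Ta, mt-Tc, mt-Ty, mt-Td, mt-Tk, mt-Tr, mt-Tl2, mt-Tt and mt-Tp had none.

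The study sequenced small RNAs of primordial germ cells (PGCs) and of the somatic cells (SCs) of the same gonads, from female and male CD1 embryos of embryonic days E11.5, E12.5 and also E13.5. PGCs were pulled out with magnetic beads carrying an antibody to CD15, a surface antigen of these cells, and the remaining cells were taken as SCs. Per the labels, both fractions were stained to measure their enrichment. Gonads of several litters were pooled, and each of the 12 combinations of cell type, sex and day is 1 library, so no condition has a replicate and the embryos carried no treatment. A library name joins the cell type, the day without its decimal and the sex, so that PGC12M stands for male PGCs at E12.5. The counts hold mitochondrial sequences only, so the identity of the cells was not checked here against their marker genes.

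Mitochondrial tRNAs are encoded between the rRNA and protein genes of the mtDNA, and they are cut out of long transcripts of each strand, which also frees the RNAs on either side. The triplet CCA is not encoded and is added to their 3′ end after this cut. The anticodon, which pairs with the codon on the mitochondrial ribosome, lies in a loop near the middle of the molecule, and cleavage in that loop yields 5′ and 3′ tRNA fragments. Base 9 from the 5′ end is a purine that carries a methyl group in many mitochondrial tRNAs. piRNAs are small RNAs bound by PIWI proteins in germ cells, where they silence transposons, and many of them begin with U. All sequences are given as DNA letters, as in the deposited counts.

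The first set of sequences shows the 4 tRNAs whose fragments began at the first base of the gene. Each line is the whole gene, 5′ to 3′ on its own strand, with the most abundant fragment in capitals.
tRNA-Gln (mt-Tq): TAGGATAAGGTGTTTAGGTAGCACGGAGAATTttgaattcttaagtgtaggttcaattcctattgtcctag
tRNA-LeuTAA (mt-Tl1): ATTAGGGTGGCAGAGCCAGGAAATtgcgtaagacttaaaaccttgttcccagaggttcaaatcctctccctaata
tRNA-Glu (mt-Te): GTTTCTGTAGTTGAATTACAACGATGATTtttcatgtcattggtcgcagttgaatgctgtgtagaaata
tRNA-Asn (mt-Tn): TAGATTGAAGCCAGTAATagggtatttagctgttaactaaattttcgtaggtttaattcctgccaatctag

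The second set shows, in the same way, the 4 tRNAs whose fragments came from inside the gene or its 3′ side.
tRNA-Phe (mt-Tf): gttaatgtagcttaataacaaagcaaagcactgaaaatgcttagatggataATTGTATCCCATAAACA
tRNA-Val (mt-Tv): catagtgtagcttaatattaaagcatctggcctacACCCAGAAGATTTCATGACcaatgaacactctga
tRNA-Gly (mt-Tg): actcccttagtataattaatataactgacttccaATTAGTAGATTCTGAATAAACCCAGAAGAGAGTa
tRNA-His (mt-Th): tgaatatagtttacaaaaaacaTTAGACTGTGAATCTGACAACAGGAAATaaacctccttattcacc

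In GRCm39 mtDNA coordinates, mt-Tf lies at 1 to 68, mt-Tv at 1025 to 1093, mt-Tl1 at 2676 to 2750, mt-Tg at 9391 to 9458 and mt-Th at 11546 to 11612 on the plus strand. The genes mt-Tq at 3772 to 3842, mt-Tn at 5089 to 5159 and mt-Te at 14071 to 14139 lie on the minus strand. Each gene is annotated as a single exon. Positions are counted from 1 at the 5′ end of the gene, and reads are the deposited raw counts.

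Fragments from the first base of the gene made up 10 of the 15 sequences and 4213 of the 4806 reads (87.7%), against 98.6% of the reads of the 2 serine tRNAs. Without SC13F the share was 97.8%, so most of the reads with another start came from that library. Intervals given for shares of reads are 95% Wilson intervals and cover counting error only, since reads were counted without molecular identifiers. The other 5 sequences held 593 reads in 4 genes. No fragment ended at the last encoded base of its tRNA. The lists hold only sequences that matched a database of immunoprecipitated piRNAs, so fragments with other ends, lengths or genes may be missing from them. tRNA-Gln and tRNA-LeuTAA together held 70.4% of the reads, and 85.0% came from these and tRNA-Glu. Among the 15 sequences, 7 were listed in 1 library (46.7%, against 39.7% of all 204 sequences), 4 in 2 libraries and 4 in 3 or more. Counts of one sequence in one library lay between 66 and 269 reads. The smallest of these is also the lowest count that any library listed: sequences under 10 CPM were removed by the authors, so a sequence that is not listed may have been present at up to about the lowest listed count, which was between 66 and 109 reads. Levels are given as reads per 1000000 reads of all small-RNA sequences above 10 CPM (rpm), the total in the study's library table. Since that total leaves out rarer sequences, the lowest listed counts came to 14.6 to 17.8 rpm, and not to 10. Deposited mito-piRNA reads per library ranged from 16061 to 59545.

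tRNA-Gln, the glutamine carrier, was the most widely listed of the 8, with 1868 reads in 10 of the 12 libraries. Its fragments were 2 sequences from the first base, shown here with the base that sets them apart in capitals.
mt-Tq 1-31: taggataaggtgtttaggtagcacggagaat
mt-Tq 1-32: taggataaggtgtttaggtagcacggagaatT
The anticodon TTG begins at position 33, so the longer sequence stops at the base before it and the shorter one a base earlier. The 32-nt sequence held 1539 reads and the 31-nt sequence 329 reads. In PGC libraries, the 32-nt sequence had 163 reads in PGC11F, 114 in PGC11M, 250 in PGC12M, 151 in PGC13F and 94 in PGC13M. In SC libraries it had 90 reads in SC11F, 147 in SC12F, 195 in SC12M, 269 in SC13F and 66 in SC13M. PGC12F and SC11M did not list it. The 31-nt sequence was listed in the 3 libraries with the most 32-nt reads, with 125 reads in PGC12M, 92 in SC12M and 112 in SC13F.

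In those 3 libraries the 31-nt sequence took 33.3% (28.8 to 38.3), 32.1% (26.9 to 37.7) and 29.4% (25.0 to 34.2) of the tRNA-Gln reads, and the intervals overlap. The pooled share was 31.5% (28.8 to 34.4). At the pooled share, the other 7 libraries with the 32-nt sequence would have held between 30.4 and 75.1 reads of the 31-nt sequence, in each case fewer than the lowest count that the library listed. The pooled share comes from the libraries that listed the 31-nt sequence, and whether it holds in the others was not tested.

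On the rpm scale, the level of tRNA-Gln fragments was 27.8 ± 24.1 in PGCs and 27.2 ± 22.3 in SCs (SD, n = 6 libraries each, with libraries that did not list it taken as 0). The groups overlapped, with 0 to 72.4 rpm in PGCs and 0 to 56.8 rpm in SCs. SCs were lower than PGCs of the same sex and day in 4 of 6 pairs and higher in 2. Females had 25.1 ± 18.7 rpm and males 29.9 ± 26.7 rpm (SD, n = 6 each), with males lower in 4 of 6 pairs and higher in 2. By day the level was 15.7 ± 11.1 rpm at E11.5, 37.1 ± 31.5 at E12.5 and 29.7 ± 19.2 at E13.5 (SD, n = 4 each).

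tRNA-LeuTAA, 1 of 2 leucine tRNAs of the mtDNA, had 1516 reads in 5 sequences, all from the first base and all exact matches. They form a ladder at the 3′ end, shown with the bases beyond the shortest sequence in capitals.
mt-Tl1 1-20: attagggtggcagagccagg
mt-Tl1 1-21: attagggtggcagagccaggA
mt-Tl1 1-22: attagggtggcagagccaggAA
mt-Tl1 1-24: attagggtggcagagccaggAAAT
mt-Tl1 1-25: attagggtggcagagccaggAAATT
No library listed a 23-nt sequence. The anticodon TAA begins at position 36, at least 10 bases beyond the last base of any of them. The 24-nt sequence had the most reads (351), and the range over the other 4 was from 263 to 334.

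Fragments of tRNA-LeuTAA were listed in 4 of 6 male libraries and in 0 of 6 female libraries. Each male library also listed more mito-piRNA sequences of any kind than the female library of the same cell type and day. In PGCs these were 96 against 55 at E11.5, 59 against 41 at E12.5 and 97 against 71 at E13.5. In SCs they were 72 against 61, 59 against 43 and 103 against 102. PGC12M listed all 5 lengths, with 114 reads at 20 nt, 160 at 21 nt, 208 at 22 nt, 257 at 24 nt and 176 at 25 nt. PGC13M listed 3 of them, with 100, 110 and 126 reads at 20, 21 and 22 nt. PGC11M listed 84 reads at 20 nt and 94 reads at 24 nt. Among the SCs, SC13M listed 87 reads at 25 nt, and the other 5 libraries listed none. Summed over lengths, the level was 177 rpm in PGC12M, 63.2 rpm in PGC13M, 36.6 rpm in PGC11M and 19.2 rpm in SC13M. The highest of these was PGC12M, and SC13M was close to the lowest rpm that a library lists. Set against the listing limit of the female PGC library of the same day, the sequences had 17.3 and 19.3 rpm in PGC11M (lowest listed in PGC11F 15.8 rpm), 22.0 to 49.6 rpm in PGC12M (16.9 rpm in PGC12F) and 18.8 to 23.7 rpm in PGC13M (17.8 rpm in PGC13F). At 2 of the 3 days the male values were thus close to the level at which a sequence goes unlisted, and in PGC12M they were further from it. PGC13F also differed in the 3′ ends that it listed. A 23-nt fragment of the 5′ end of the 16S rRNA had 0 reads there and 1198 to 3756 reads in 11 libraries. With 1 more base, an A, it had 2461 reads in PGC13F and was listed nowhere else. Not every end differed, and the 29-nt fragment of the same start had 1416 reads in PGC13F. How far this bears on the tRNA-LeuTAA lengths unlisted in PGC13F was not tested.

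tRNA-Glu, the glutamate carrier, had 699 reads in 2 sequences of 29 nt from the first base, which ended 1 base short of the base before the anticodon TTC at position 31. The exact sequence had 95 reads in PGC11M, 114 in PGC12M, 143 in PGC13F, 88 in SC12M and 133 in SC13F, 573 reads in all. It was listed in 3 PGC and 2 SC libraries, and in 2 female and 3 male libraries. SC13F also listed 126 reads of a sequence with 1 mismatch, A9T (the mtDNA has A at position 9 from the 5′ end and the fragment has T), nearly as many as of the exact one there.

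tRNA-Asn, the asparagine carrier, was represented by a single sequence of 18 nt from its first base, with 130 reads in SC13F. It carried the mismatch A9G. Both fragments with a mismatch at base 9 are given with that base in capitals, each after the mtDNA sequence of the same place.
mtDNA, mt-Te 1-29: gtttctgtAgttgaattacaacgatgatt
fragment, mt-Te 1-29 A9T: gtttctgtTgttgaattacaacgatgatt
mtDNA, mt-Tn 1-18: tagattgaAgccagtaat
fragment, mt-Tn 1-18 A9G: tagattgaGgccagtaat
Of all 204 sequences, these 2 had a mismatch at the ninth base of the fragment, with 256 reads. None of the 189 other sequences had one, although 41 of them carried 1 mismatch. In both genes the mtDNA has A at base 9. The 7 fragments of tRNA-Gln and tRNA-LeuTAA, whose base 9 is G, all matched the mtDNA exactly. This comparison was chosen after the sequences were seen. Both mismatched fragments came from SC13F alone, and whether the mismatch arose in the cells or in the library was not tested. The 18-nt sequence also matched the nuclear genome exactly, in an intron of Thsd7a at chr6:12391780-12391797, on the opposite strand to that gene, where 32 of the 71 bases of the tRNA gene were identical. Its mitochondrial origin cannot be told apart from a nuclear one by the sequence.

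The remaining 5 sequences were each listed in a single library, 4 of them in SC13F. From tRNA-Val, the valine carrier, SC13F held 134 reads of a 19-nt sequence at positions 36 to 54, which starts at the base after the anticodon TAC at 33 to 35. From tRNA-Gly, the glycine carrier, it held 120 reads of a 33-nt sequence at positions 35 to 67, which starts 1 base beyond the base after the anticodon TCC and stops a base before the end of the gene. From tRNA-His, the histidine carrier, SC13M held 78 reads of a 28-nt sequence at positions 23 to 50. It was the only one of the 15 that contained the anticodon, GTG at position 30.

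The last 2 sequences ran to the 3′ end of their tRNA and carried CC after it. They are shown with the bases past the gene in capitals, each after the mtDNA of the same place.
mtDNA, mt-Tf 52-70: attgtatcccataaacaCA
fragment, mt-Tf 52-70 A19C: attgtatcccataaacaCC
mtDNA, mt-Tv 43-71: agatttcatgaccaatgaacactctgaAC
fragment, mt-Tv 43-71 A28C: agatttcatgaccaatgaacactctgaCC
The first held 17 bases of tRNA-Phe, the phenylalanine carrier, and the second 27 bases of tRNA-Val. SC13F listed 133 reads of the first and 128 reads of the second. In each the only mismatch lay in the bases past the gene, A19C or A28C, counted from the 5′ end of the fragment. These were the only 2 sequences over all 22 tRNA genes that ended in CC right past the last encoded base. The limit of 1 mismatch bears on this count. A fragment ending in CC would have passed it in 6 of the 22 genes and one ending in CCA in 4 of them. For tRNA-Phe a CCA end would have had 1 mismatch and was not listed. For tRNA-Val it would have had 2 and could not be kept.

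Set against the anticodon, the 15 sequences fell into 5 position classes, defined after the positions were seen. Fragments from the first base that ended up to 1 base short of the base before the anticodon (tRNA-Gln and tRNA-Glu) were 4 sequences of 29 to 32 nt with 53.4% of the reads. Those from the first base that ended 10 or more bases before it (tRNA-LeuTAA and tRNA-Asn) were 6 sequences of 18 to 25 nt with 34.2%. Those that started right after the anticodon or 1 base later (tRNA-Val and tRNA-Gly) were 2 sequences with 5.29%, those with CC past the last base 2 sequences with 5.43%, and the fragment of tRNA-His that contained the anticodon held 1.62%. No gene had a fragment ending before the anticodon and another starting after it.

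The fragments were longer than the rest of the mito-piRNAs. They spanned 18 to 33 nt with a median of 25 nt, against a median of 22 nt for the 189 other sequences and 21 nt for the 45 of the serine tRNAs. Sequences of 24 nt or longer were 9 of 15 (60%), against 39.7% of the other sequences, and they held 73.0% of the reads, against 39.9%. These are descriptions: fragments of one gene share their 5′ end and are not independent, and 2 tRNA-Gln sequences held 1868 of the 4806 reads.

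The first base differed too. T was the first base of 43.2% of their reads, against 4.62% of the reads of all other sequences and 0% for the serine tRNAs. A was the first base of 42.3%, against 79.1% of other reads, and G of 14.5%, against 15.2%. The first base was that of the gene for the 10 sequences from position 1: T in tRNA-Gln and tRNA-Asn, A in tRNA-LeuTAA and G in tRNA-Glu. Per sequence, 4 of 15 began with T (26.7%), against 12.7% of the others, and 9 of 15 with A (60%), against 65.1%, so the difference in A was mostly one of reads. T was the last base of 73.0% of the reads, against 51.0%.

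Several of these tRNAs border RNAs that gave far more reads. Right after the last base of tRNA-Val, 29 fragments of the 16S rRNA began, with 115375 reads. Right after tRNA-His, 30 fragments of tRNA-SerGCT began, with 152814 reads. At the second base after tRNA-Phe, 9 fragments of the 12S rRNA began, with 22356 reads, and right after tRNA-Gly 4 fragments of mt-Nd3 began, with 1238 reads. At the other end, 8 fragments of the 16S rRNA stopped at the base before tRNA-LeuTAA, with 18177 reads, against 1516 reads of the tRNA-LeuTAA fragments that began at the next base.

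The border between the 16S rRNA and tRNA-LeuTAA was also spanned by the match of 4 sequences with 1986 reads, which count as 16S rRNA because most of their bases lie there. The most abundant is shown with its bases in mt-Tl1 in capitals.
mtDNA 2665 to 2681: tagagaaggttATTAGG
It is 17 nt long, with 11 bases of the 16S rRNA and 6 of tRNA-LeuTAA, and held 1563 reads in 8 libraries. It was listed in PGC11M (295 reads), PGC12F (100), PGC12M (99), PGC13M (291), SC11M (243), SC12M (148), SC13F (172) and SC13M (215). All 6 male libraries and 2 of the female libraries listed it. Male libraries also listed more mito-piRNA sequences of any kind, in every pair of the same cell type and day. PGC13F listed the same 17 bases followed by an A that does not match the mtDNA (G18A, 198 reads), so the 17 bases were found in 3 of 6 female libraries. It also listed 145 reads of a 20-nt sequence with 19 bases of the 16S rRNA and a last A. That A matches the first base of tRNA-LeuTAA, but it cannot be told apart from an A added to a 16S rRNA end.

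Many of the fragments also matched the nuclear genome, which holds copies of mtDNA (NUMTs). With up to 1 mismatch on either strand, 12 of the 15 had a nuclear match, with 58.5% of the reads, and 9 had an exact one. The 3 without were both sequences of tRNA-Gln and the 29-nt sequence of tRNA-Val with CC, with 1996 reads (41.5%). The exact matches of tRNA-Glu at chr4:79922192-79922220, of tRNA-Gly at chr1:24652202-24652234 and of tRNA-His at chr2:69185929-69185956 lay in complete nuclear copies, in which every base of the tRNA gene (69 of 69, 68 of 68 and 67 of 67) was identical. The tRNA-Gly copy lies in an exon of the lncRNA gene Gm71269, on its strand, and no gene is annotated at the other 2. The tRNA-LeuTAA fragments matched a place on chromosome 9 that starts at 15231078, where 62 of the 75 bases of the tRNA gene were identical, in an exon of Cep295 on the opposite strand to that gene. For these fragments a nuclear and a mitochondrial source cannot be told apart from the sequence.

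Libraries differed widely in the sum over the 15 sequences. The level was 71.9 ± 81.4 rpm (SD, n = 12), with a median of 54.5 rpm. PGC12M was highest at 271 rpm, where 8 sequences in 3 genes made up 5.36% of its mito-piRNA reads (5.10 to 5.64). SC13F was next at 191 rpm, with 9 sequences in 6 genes and 2.32% of the reads (2.20 to 2.45). The other libraries with a fragment lay between 15.8 rpm in SC11F and 80.9 rpm in PGC13M. PGC12F and SC11M listed none. For comparison, the serine tRNA fragments ranged from 861 to 7596 rpm and were listed in every library.

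SC13F decided how many sequences were found. It was the only library for 6 of the 15, and without it 9 sequences in 4 genes with 3521 reads remained. Leaving out any other library left 14 or 15. SC13F and SC13M listed the most mito-piRNA sequences of any kind (102 and 103), and PGC12F the fewest (41). The part of this difference in the number of fragments listed was not tested.

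By group, the summed level was 85.6 ± 96.3 rpm in PGCs and 58.3 ± 69.5 rpm in SCs (SD, n = 6 each). It was 52.3 ± 70.8 rpm in females and 91.5 ± 92.9 rpm in males (SD, n = 6 each). By day it was 29.8 ± 34.6 rpm at E11.5, 90.7 ± 123 at E12.5 and 95.3 ± 65.3 at E13.5 (SD, n = 4 each). Every one of these groups overlapped the others, and single libraries carried the means. Without PGC12M the mean was 48.5 rpm in PGCs, 55.6 in males and 30.5 at E12.5. Without SC13F it was 31.6 rpm in SCs, 24.5 in females and 63.3 at E13.5, and without PGC11M it was 13.2 rpm at E11.5. Males were higher than females of the same cell type and day in 4 of 6 pairs, among them all 3 PGC pairs, and SCs were lower than PGCs of the same sex and day in 4 of 6 pairs.

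Differences in the reads of each gene and strand were tested by edgeR (quasi-likelihood), in an additive model that held day, sex and cell type, and p-values were adjusted by the Benjamini-Hochberg method for the 11 features listed in at least 3 libraries. Of the fragments, those of tRNA-Gln, tRNA-LeuTAA and tRNA-Glu could be tested. The threshold was an adjusted p of 0.05. By cell type 0 of the 11 features passed (0%), with 1 at an unadjusted p under 0.05. By sex 1 of 11 passed (9.09%), which was tRNA-LeuTAA, and 3 had an unadjusted p under 0.05. By day 0 of 11 passed (0%), with 3 at an unadjusted p under 0.05.

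tRNA-LeuTAA passed the test by sex with an edgeR adjusted p of 0.0414, with unlisted libraries taken as 0. It entered the test through male libraries alone, since no female library listed it, and the minimum of 3 libraries was met by males only. For the same reason neither a fold nor a direction is read from the test. The call did not hold in most alternatives. Leaving out 1 library at a time, it was lost in 10 of 12 fits, with adjusted p from 0.0111 to 0.293, and it passed only without PGC12F or without PGC13M. With missing counts set to the lowest count of the library, the adjusted p was 0.551, and with pairs of the same day and cell type as a block it was 0.099. The number of libraries listing it (4 of 6 males, 0 of 6 females) gave a two-sided Fisher's exact p of 0.0606, adjusted p = 1 over 19 features, and 0.0606 is the smallest p that a gene listed in 4 of 12 libraries can reach.

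For tRNA-Gln, the edgeR log2 difference of SCs from PGCs was -0.35 (SE 2.46, adjusted p = 0.995) and that of males from females -0.19 (SE 2.65, adjusted p = 0.987). The 95% intervals ran from -5.17 to 4.47 and from -5.39 to 5.01, so they include large differences in either direction. Each SE was worked back from the quasi-likelihood F statistic, and the intervals are normal approximations. For tRNA-Glu the log2 difference was -0.93 (SE 3.06, adjusted p = 0.995) between SCs and PGCs and 6.57 (SE 5.36, adjusted p = 0.493) between males and females. The fitted signs of the sex differences go against the mean levels for both tRNAs: for tRNA-Glu the mean was 11.1 ± 17.6 rpm in females and 9.54 ± 10.6 rpm in males (SD, n = 6 each), and for tRNA-Gln it was also the other way round, so no direction is read from them. The order of these means also turned with single libraries: for tRNA-Glu without SC13F (5.65 rpm in females), without PGC13F, or without any 1 of the 3 male libraries that did not list it, and for tRNA-Gln without PGC12M (21.4 rpm in males) or without PGC12F. For tRNA-LeuTAA, listed in 3 PGC libraries and 1 SC library, the adjusted p of SCs against PGCs was 0.373. No difference is given, since 5 of 6 SC libraries did not list it and the minimum of 3 libraries was met through PGCs. By day, the edgeR adjusted p was 0.897 for tRNA-Gln, 0.521 for tRNA-Glu and 0.541 for tRNA-LeuTAA.

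Of single sequences, 97 were listed in at least 3 libraries, among them the 2 of tRNA-Gln, the exact one of tRNA-Glu and the 20-nt one of tRNA-LeuTAA. By edgeR, 2 of 97 passed by cell type (2.06%), 0 by sex (0%) and 0 by day (0%), with 9, 4 and 2 at an unadjusted p under 0.05. None of the 4 tRNA fragments passed for any factor, and none had an unadjusted p under 0.05. The 20-nt sequence of tRNA-LeuTAA was listed in the 3 male PGC libraries only, so it entered the tests by sex and by cell type through 1 group, and nothing is read from its p. The exact tests on the number of libraries listing a feature passed for 0 of 19 features (0%) by cell type, by sex and by day, with 0, 0 and 1 at an unadjusted p under 0.05. None of the 8 tRNAs was among these. These tests had little room for them: by cell type or sex the smallest exact p that the number of libraries allows is 0.455 for tRNA-Gln, 0.0606 for tRNA-LeuTAA and 0.0152 for tRNA-Glu, before adjustment, and 1 for the 5 listed in a single library.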

How the data were processed

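Small RNAs of 12 libraries, 1 for each combination of cell type, sex and day, were analysed. The authors trimmed reads with Trim Galore, checked them with FastQC, collapsed identical reads and removed those below 10 CPM. They used Bowtie to align the remainder (mm39 per the labels) against the nuclear genome and the mtDNA, with 1 mismatch allowed. They retained mtDNA sequences that also matched a database of immunoprecipitated piRNAs. The deposited values are raw counts of reads per unique sequence, without normalization. A sequence absent from a library was taken as 0 reads, although it may lie under the CPM limit.

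Here, each sequence was placed on the GRCm39 mtDNA with up to 1 mismatch and given to the GENCODE gene with most of its bases. Anticodons were found as the expected triplet at positions 28 to 37, after a T, which was waived for tRNA-Val. Nuclear matches came from a full scan of the chromosomes, which recovered 60 of 60 planted sequences. Abundance was computed per 1000000 reads (rpm) of the total in the study's library table, which counts only sequences above 10 CPM. The fragments and lists were chosen with earlier results of these data known.

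edgeR 4.0.16 (R 4.3.3) fitted an additive model of cell type, sex and day over all features, and over all sequences, listed in at least 3 libraries. Since no condition has a replicate, the residual spread is that between single libraries. Tested on simulated data of the 97 sequences (SC against PGC, 20 changed 4-fold, dispersion 0.1, 20 data sets), 100% of changed sequences were called and 3.38% of calls were unchanged. With counts under the listing limit removed, these were 70% and 4.11%. The dispersion was set and not estimated, and the means were those of all 97 sequences. For tRNA-Gln the SE of the log2 difference by cell type was 2.46 in the real data. The recovery of a 4-fold change therefore does not carry over to the tRNA fragments. Listing was tested with Fisher's exact test or its 3-group form (scipy 1.17.1, Python 3.11.15). DESeq2 1.42.0, other library sizes, minimum numbers of libraries, exact matches, a pair block and leaving out each library were alternatives. Named are all tRNA genes with a fragment, with the most abundant sequence, those listed in at least 3 libraries and, after values were seen, those showing a mismatch, a CC end or the ladder of lengths.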

Additional observations from a re-analysis of the deposited data

Results flagged for a closer look

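Group levels of all fragments together, and of the genes listed in at least 3 libraries, were checked for a library far from the rest of its group, by the gap to its nearest neighbour as a share of the range. Of 28 groups checked, 10 held such a library. Chance gives about 1 in 20 for continuous values, a rate that does not apply here: unlisted libraries were set to 0, and in 4 of the 10 groups a single library listed the fragments, which meets the criterion by itself. The groups also share libraries.

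For all fragments, PGC12M at 271 rpm stood apart from the other PGC libraries and from the other male libraries, which both lay between 0 and 80.9 rpm. SC13F at 191 rpm stood apart from the other SC libraries (0 to 66.7 rpm) and from the other female libraries (0 to 58.1 rpm). For tRNA-LeuTAA, PGC12M at 177 rpm stood apart from the other PGC libraries and the other male libraries (0 to 63.2 rpm in both) and was the only library of E12.5 to list it. SC13M was the only SC library to list tRNA-LeuTAA, at 19.2 rpm, and PGC11M the only library of E11.5, at 36.6 rpm. For tRNA-Glu, PGC11M was the only library of E11.5 to list it, at 19.5 rpm.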

How the results depend on the processing

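The call of tRNA-LeuTAA by sex was 1 in the reported fit. It was 0 with missing counts set to the lowest count, with exact matches only (adjusted p = 0.0616 by edgeR), with pairs as a block, and with a minimum of 5 libraries, where it was not tested; leaving out 1 library gave 0 to 1. The cause was not tested. It held with TMM, file totals, DESeq2 and a minimum of 1 library, with adjusted p from 0.0271 to 0.0462. Over all alternatives in which it was tested, the adjusted p ran from 0.0111 to 0.551. No other fragment was called for any factor in any alternative run. Over all features or sequences, alternatives gave 0 to 2 calls by cell type, 0 to 3 by sex and 0 to 2 by day for features, and 0 to 14, 0 to 3 and 0 to 0 for sequences. Counting each sequence once lowered the share from the first base to 66.7%, and allowing 1 nt raised the share at the last base from 0% to 2.50%. Per 1000000 mitochondrial small-RNA reads the mean level was 10123. Leaving out 1 library gave 9 to 15 sequences, the lowest without SC13F. The sign for tRNA-Gln turned in 2 of 20 alternatives by cell type and in 6 of 20 by sex, and that for tRNA-Glu in 1 of 20 by sex. The block held pairs of libraries that share the other 2 factors, since no condition has a replicate.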
